A study of Rattus norvegicus with 14 samples.

Results

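The genes of the sodium phosphate cotransporters of families Slc34 and Slc20 were examined across arrays of rat small intestine. They were taken as all probes whose gene symbol in the platform annotation begins with Slc34a or Slc20a followed by a digit, which gave 4 probes of 4952, 1 each for Slc34a2 (Entrez gene 84395), Slc34a1 (25548), Slc20a1 (81826) and Slc20a2 (29502), or 4 genes of the 4156 measured with a symbol. The rats were 20 days old, and their intestine was perfused with HG or HF, abbreviations that the labels do not spell out and that stand for high glucose and high fructose as the study is known. RNA was compared on arrays of 2 colours with HG in channel 1 and HF in channel 2. The arrays compared were 5 pairs after 4 h of perfusion, 4 pairs after 20 min and 3 self-self arrays (1HG, 3HG and 3HF). Each self-self array carried a single RNA in both channels, taken to be of 4 h perfusion. Their titles carry the numbers of pairs 1 and 3 at 4 h, so they may share RNA with those pairs. The others were a further array of pair 2 at 4 h, called array 6, and a primer array with no tissue RNA named. The labels give no strain, sex, solute concentration or unperfused intestine, and do not say whether pairs came from different animals, so p-values measure the spread between arrays, which may be technical, and their number limits the precision. A ratio cannot tell a fall with HF from a rise with HG, nor fewer cells of a type from less RNA per cell. No channel intensities were analysed here, so the levels of the genes, and the tissue's defining markers, could not be checked.

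Cotransporters of both families move inorganic phosphate into cells together with sodium, driven by the sodium gradient that the sodium pump maintains. Slc34a2 encodes NaPi-IIb, the cotransporter of the intestinal brush border through which enterocytes absorb dietary phosphate, and is known to respond to dietary phosphate and vitamin D. Slc34a1 encodes NaPi-IIa, known chiefly as the cotransporter that reclaims phosphate in the renal proximal tubule. Slc20a1 and Slc20a2 encode PiT-1 and PiT-2, which supply phosphate to most cell types and also serve as receptors for certain retroviruses.

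Promoters are shown for the Slc34 pair, which had the lowest mean ratios of the 4 genes at 4 h and are the 2 of 4 matched to RefSeq windows on the GRCr8 assembly. The windows allow their letters to be compared, and the 250 bases before the annotated start are printed 5′ to 3′ on the gene's strand, with capitals for matches to the motifs searched. The Slc34a2 window, chr14:62143073-62143322 on the minus strand, lies inside the annotated span of the gene and not at its outer end. The Slc34a1 window is chr17:9238984-9239233, also on the minus strand.
Slc34a2: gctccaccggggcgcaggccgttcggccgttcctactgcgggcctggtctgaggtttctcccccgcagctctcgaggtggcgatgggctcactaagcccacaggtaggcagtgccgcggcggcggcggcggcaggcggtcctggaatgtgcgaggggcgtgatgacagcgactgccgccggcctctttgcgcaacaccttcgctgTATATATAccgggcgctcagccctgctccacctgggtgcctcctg
Slc34a1: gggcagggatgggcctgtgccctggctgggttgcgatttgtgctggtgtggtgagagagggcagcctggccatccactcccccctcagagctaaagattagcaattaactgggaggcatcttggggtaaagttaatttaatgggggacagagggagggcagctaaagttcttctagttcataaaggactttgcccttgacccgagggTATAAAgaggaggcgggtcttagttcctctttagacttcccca
The capitals mark TATATA in Slc34a2, in 2 overlapping matches from 45 to 38 bases before the start, and TATAAA in Slc34a1, from 43 to 38 bases before it. Searched on both strands, TATATA was present in 5.45% and TATAAA in 12.9% of 33469 rat promoter windows of this length. Neither window held CCAAT (34% of all windows), GGGCGG (30.5%), CACGTG (5.59%) or AGGTCA (14.1%). The windows differed in composition: GC made up 68.8% of the Slc34a2 window, with 25 CG dinucleotides, and 53.2% of the Slc34a1 window, with 3, where the medians of all windows were 51.2% and 5. These matches are descriptions of letters and not of bound sites.

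Slc34a2 had a negative ratio in every pair at 4 h. The sign of a ratio is not explained in the sources used here, and a negative ratio is likely to mean less RNA with HF than with HG. The basis lies outside the phosphate genes: Slc2a5, which encodes the fructose transporter GLUT5 and is known to be induced by fructose, had ratios between 1.33 and 1.95 in the 5 pairs at 4 h. All values are log2 ratios (base 2 is assumed) centred on the median of each array. For Slc34a2 the ratio at 4 h was -1.33 in pair 1, -0.74 in pair 2, -2.49 in pair 3, -2.29 in pair 4 and -1.45 in pair 5. After 20 min it was 0.08, 0.30, 0.34 and -0.35 in pairs 1 to 4, and on the self-self arrays 1HG, 3HG and 3HF it was 0.03, -0.01 and 0.12. Every pair at 4 h therefore lay below every other tissue array of these 3 groups, while the arrays at 20 min lay on both sides of the self-self values. Ratios at 4 h and on the self-self arrays did not overlap in 6.71% of all features. The means were -1.66 ± 0.72 (SD, n = 5) at 4 h, 0.05 ± 0.07 (n = 3) on the self-self arrays and 0.09 ± 0.32 (n = 4) at 20 min. In that order the self-self arrays and the arrays at 20 min overlapped.

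**Figure D1:**
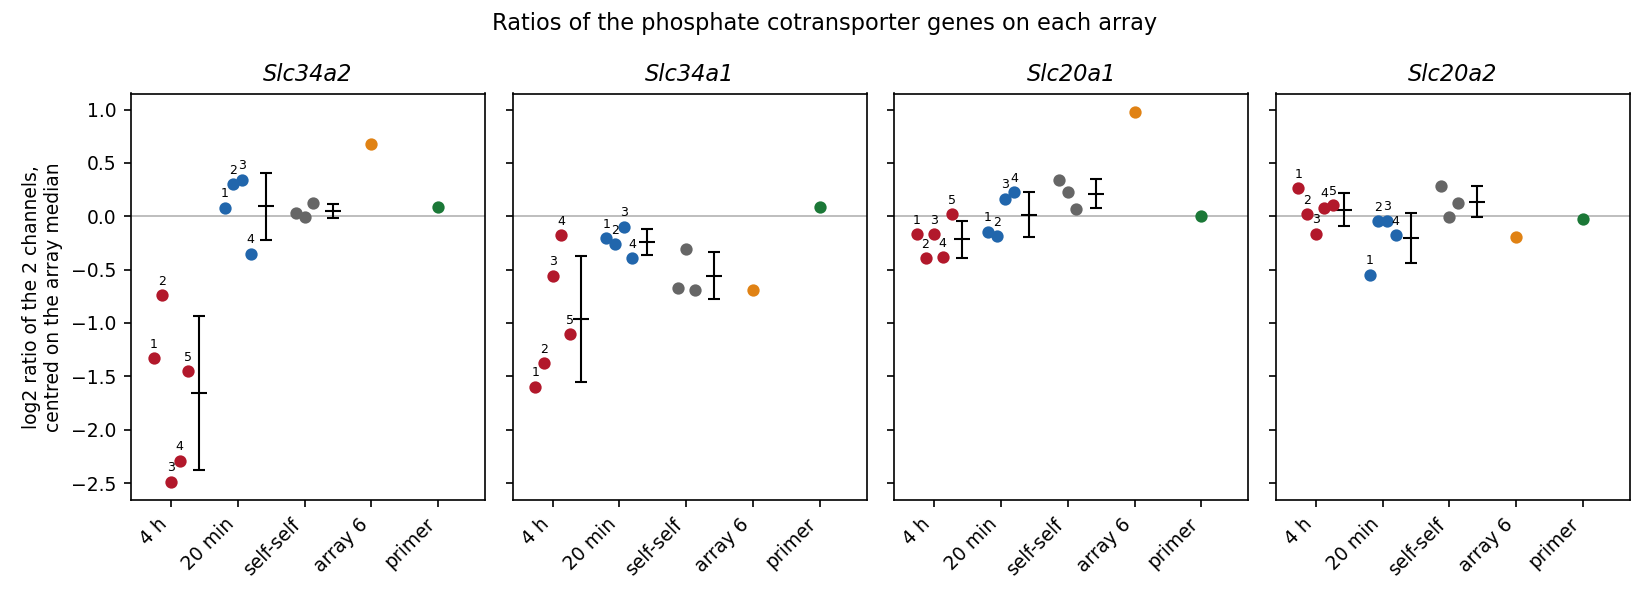
Log2 ratios (vertical axis, centred on the array median) of the 4 phosphate cotransporter genes on each array, with 1 panel per gene and the pair number beside points at 4 h and 20 min; black marks give the mean ± SD of each group. In Slc34a2 all 5 points at 4 h lie between -2.49 and -0.74, below all arrays at 20 min and all self-self arrays, while Slc20a1 and Slc20a2 stay between -0.55 and 0.34 in these groups.

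The test of Slc34a2 passed between the times and not against the self-self arrays. From 20 min to 4 h the ratio of Slc34a2 fell by 1.75 ± 0.31 on the log2 scale (SE; 95% interval -2.42 to -1.08; 3.37-fold; limma adjusted p = 0.0312), the second most negative difference of all 4682 features after Barhl1. A feature counted as called at an adjusted p below 0.05. Of all features, 0.598% were called in this comparison, 0.32% with a lower ratio at 4 h, and Slc34a2 was the 1 called gene of the 4. The groups at 4 h and 20 min did not overlap in Slc34a2, as in 6.54% of all features, and the exact two-sided permutation test over the arrays gave p = 0.0159, the smallest it can give. This comparison takes the ratio to have the same direction at both times. Relative to the self-self arrays, where both channels hold 1 RNA, the difference of Slc34a2 at 4 h was -1.71 ± 0.34 (SE; 95% interval -2.44 to -0.97; limma adjusted p = 0.131), the 10th smallest p of 4682, where 0.0641% of features were called. At 20 min that difference was 0.04 ± 0.35 (95% interval -0.72 to 0.81; limma adjusted p = 0.992), where 0.0427% of features were called. These 3 comparisons share arrays and are not independent of each other.

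**Figure D2:**
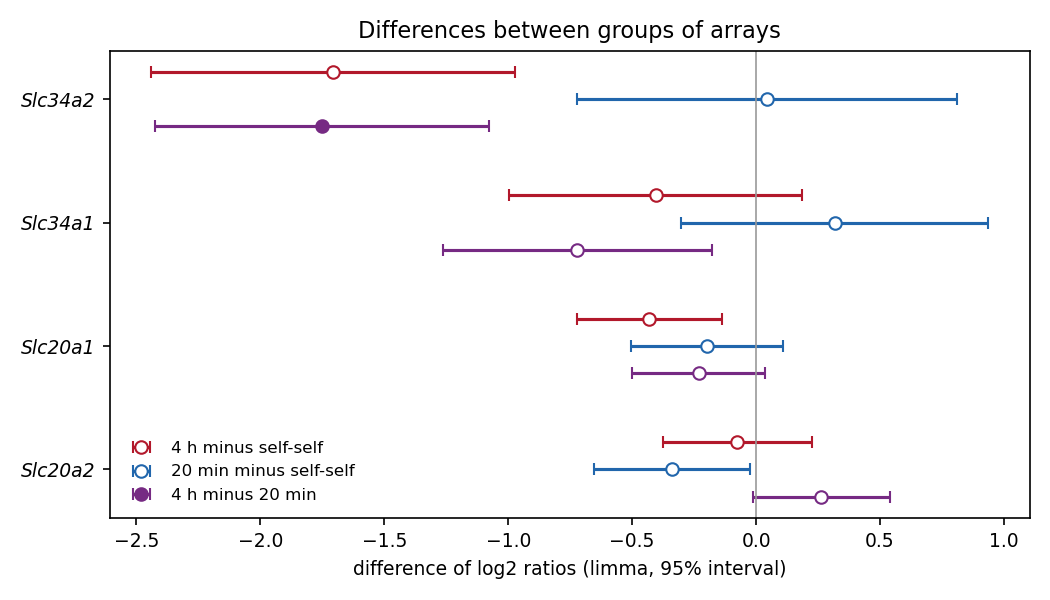
Differences of log2 ratios (horizontal axis) between groups of arrays for the 4 genes, with limma 95% intervals; a filled point marks an adjusted p below 0.05 over all 4682 features. Of the 12 points shown, the one filled is Slc34a2 for 4 h minus 20 min, at -1.75.

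The size of the Slc34a2 difference varied less between settings than its p did. Over 23 alternatives of the limma fit for 4 h minus 20 min, it ranged from -2.07 (quantile normalization) to -1.54 (arrays scaled to 1 spread), and 11 of the 23 passed. With 1 of the 9 arrays left out it ranged from -1.98 to -1.54 and passed in 2 fits, those without 4 h replicate 2 (adjusted p = 0.0106) or 5 (0.0444). It did not pass without 4 h replicate 1 (adjusted p = 0.0663), 3 (0.0516) or 4 (0.0539), or without 20 min replicate 1 (0.0665), 2 (0.114), 3 (0.128) or 4 (0.0629). Leaving out a self-self array, which changes the estimate of the spread but not the difference, gave 0.0147 without 1HG, 0.0508 without 3HG and 0.0511 without 3HF. Pair 2 had the ratio nearest to 0 at 4 h, and without it the difference from the self-self arrays was -1.94 and passed (adjusted p = 0.0394).

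**Figure D3:**
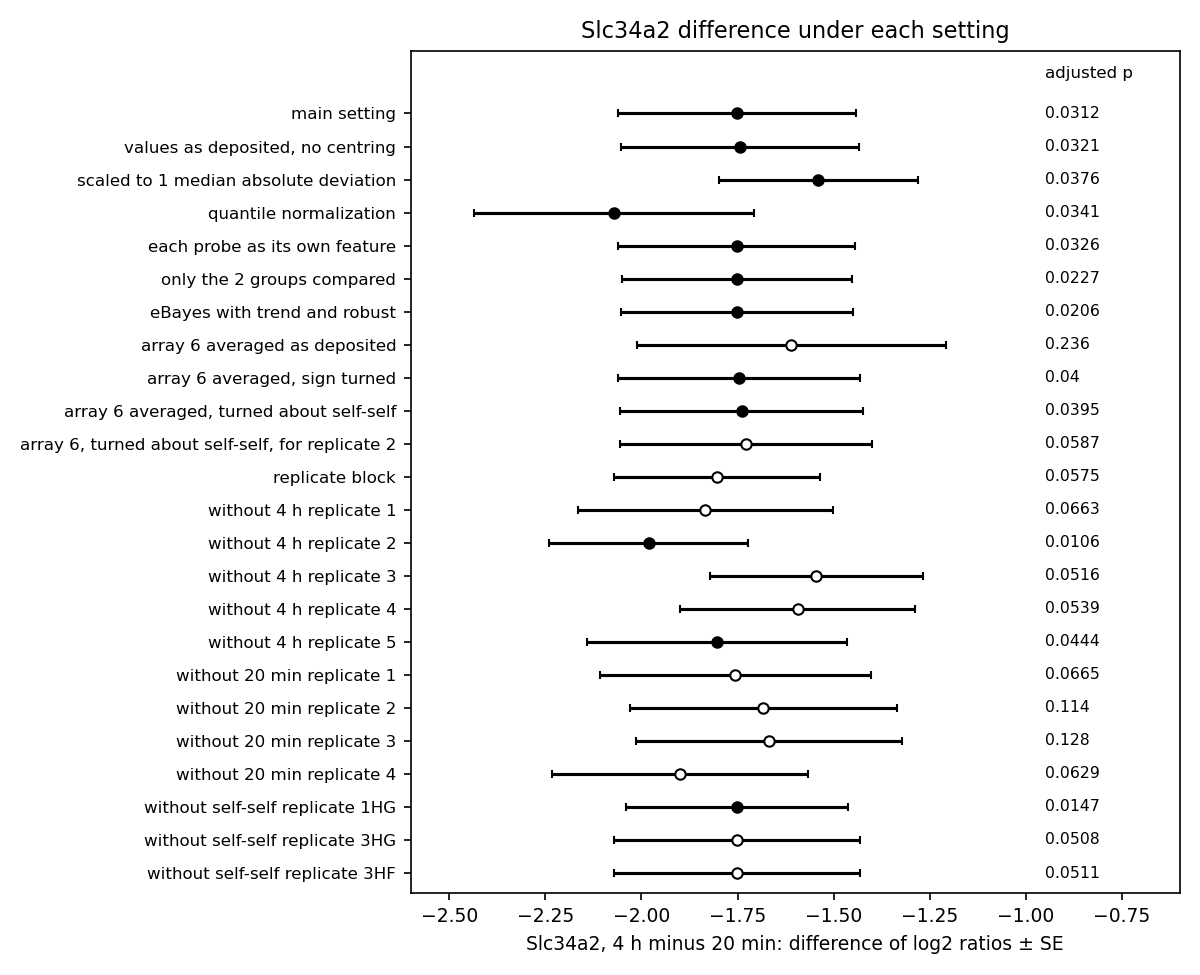
Difference of the Slc34a2 log2 ratio between 4 h and 20 min (horizontal axis, ± SE) under the main setting and 23 alternatives, with the limma adjusted p at the right and filled points for those below 0.05. All points lie between -2.07 and -1.54, and the adjusted p runs from 0.0106 to 0.236.

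Slc34a1, the renal relative, had negative ratios on all tissue arrays. At 4 h its ratio was -1.60, -1.38, -0.56, -0.18 and -1.10 in pairs 1 to 5, with a mean of -0.96 ± 0.59 (SD, n = 5). After 20 min it was -0.21, -0.26, -0.10 and -0.39 (mean -0.24 ± 0.12, n = 4). The self-self arrays were themselves below 0, at -0.68, -0.30 and -0.69 (mean -0.56 ± 0.22, n = 3), so part of the negative ratio was present where both channels held the same RNA. The 4 h arrays overlapped both other groups. Slc34a1 had a difference of -0.72 ± 0.25 between 4 h and 20 min (SE; limma adjusted p = 0.222), and of -0.40 ± 0.27 at 4 h (adjusted p = 0.58) and 0.32 ± 0.28 at 20 min (adjusted p = 0.926) from the self-self arrays. Without 4 h replicate 1, the lowest, the difference of Slc34a1 at 4 h was -0.25. Tested against 0 instead of the self-self arrays, its mean at 4 h passed (adjusted p = 0.00197), in a setting that called 763 features. Slc34a1 and Slc34a2 did not rank the pairs alike: pairs 3 and 4, which had the lowest ratios of Slc34a2 at 4 h, had the highest ratios of Slc34a1.

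Neither PiT gene was called in any of the 3 comparisons. For Slc20a1 the ratio at 4 h was -0.17, -0.39, -0.17, -0.38 and 0.02 in pairs 1 to 5, below the self-self arrays at 0.34, 0.23 and 0.07 without overlap, as in 6.71% of all features. Its difference was -0.43 ± 0.13 (SE; 95% interval -0.72 to -0.14; limma adjusted p = 0.346; exact permutation p = 0.0357, the smallest 5 against 3 arrays can give). After 20 min Slc20a1 lay at -0.14, -0.19, 0.16 and 0.23, across the range of both other groups. Its ratio differed between 4 h and 20 min by -0.23 ± 0.12 (adjusted p = 0.454; 95% interval -0.50 to 0.04).

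Slc20a2 had its lowest ratios at 20 min. They were -0.55, -0.05, -0.04 and -0.18 in pairs 1 to 4, below the self-self arrays at 0.29, -0.01 and 0.13, without overlap, as in 7.01% of all features. The difference was -0.34 ± 0.14 (SE; 95% interval -0.65 to -0.03; limma adjusted p = 0.801; exact permutation p = 0.0571, the smallest 4 against 3 arrays can give), and it was -0.22 without 20 min replicate 1, which holds the lowest value. At 4 h the ratio of Slc20a2 was 0.26, 0.02, -0.16, 0.08 and 0.10, within or close to the self-self values, with a difference of -0.08 ± 0.14 (95% interval -0.38 to 0.22; adjusted p = 0.871). Between 4 h and 20 min Slc20a2 differed by 0.26 ± 0.13 (adjusted p = 0.39; 95% interval -0.01 to 0.54), opposite in sign to the other 3 genes, and by 0.15 without 20 min replicate 1.

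Slc34a2 was also compared with its relatives within each array, where a shift common to the 4 genes cancels. Slc34a2 minus the mean of the other 3 was -0.83, -0.15, -2.19, -2.13 and -1.12 in pairs 1 to 5 at 4 h, and 0.38, 0.47, 0.33 and -0.24 at 20 min. Pair 2 at 4 h overlapped the range at 20 min, since Slc34a1 was also low in that pair. The means differed by -1.52, from 0.24 ± 0.32 (SD, n = 4) to -1.29 ± 0.87 (n = 5), with an exact two-sided permutation p of 0.0317 over 126 assignments. On the self-self arrays this quantity lay between 0.02 and 0.29. With 1 array left out the mean difference ranged from -1.80 to -1.30, and p rose to between 0.0571 and 0.0714 (exact) without any of 4 h replicates 1, 3, 4 and 5 or 20 min replicates 1, 2 and 3. The p of this comparison thus depended on single arrays. Such a difference can tell only whether Slc34a2 changed unequally to the others, not which of them moved.

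Array 6, left out of the tests, carried the RNAs of pair 2 again, and its title marks HG with a 5 and HF with a 3, read as Cy5 and Cy3. Slc34a2 had a ratio of 0.68 there and -0.74 on array 2, the array of pair 2 in the tests, of opposite sign and nearly the same size. For Slc2a5 these were -1.66 and 1.62. Slc20a1 was also of opposite sign, at 0.98 against -0.39, but further from the self-self arrays than on array 2. The other genes did not mirror array 2: Slc34a1 had -0.69 against -1.38, near the lowest of its self-self ratios, and Slc20a2 had -0.20 against 0.02. A swap of dyes on array 6 is an inference from its title, and its spread over all probes (SD 0.82) was larger than on arrays 1 to 5 (0.36 to 0.40). On the primer array the 4 genes lay between -0.02 and 0.09. The self-self array 1HG also had a wide spread (SD 1.39), but the 4 genes lay between -0.68 and 0.34 on it.

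Over 7 lists of genes around phosphate transport, Slc34a2, Entpd2 and Slc2a5 were called between the times, where 0.598% of all features were. These calls are no test of the lists. Slc34a2 is the gene examined, Slc2a5 served above to set the direction, and earlier results were known when the lists were chosen. Of the 11 phosphate transporters listed 6 were measured. Besides Slc34a2 none was called, and the list's median difference between 4 h and 20 min was -0.16, against -0.01 for all features. Slc25a3, the mitochondrial phosphate carrier, differed by 0.39 ± 0.13 (SE; limma adjusted p = 0.217) between the times, and Slc17a1, a type I phosphate transporter, by 0.20 ± 0.11 at 20 min from the self-self arrays (adjusted p = 0.801). Among 28 measured hormones and receptors of phosphate balance 0 were called in any comparison with limma, and 5 had an unadjusted p below 0.05 for 4 h minus 20 min, where 13.5% of all features did. The median of that list was -0.07 between the times. Stc2, which encodes the hormone stanniocalcin 2, had a difference of -0.61 ± 0.16 at 4 h from the self-self arrays (adjusted p = 0.237), and Egf, the epidermal growth factor, of 0.48 ± 0.14 (adjusted p = 0.269). Calca, which encodes calcitonin and its related peptide, differed by -0.43 ± 0.11 between the times (adjusted p = 0.13). That value averages probes that differed, since 1 Calca probe taken alone had -0.72 (limma adjusted p = 0.0803).

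Scaffolds and kinases that act on these cotransporters had 15 measured genes, 0 called in any comparison with limma, 3 with an unadjusted p below 0.05 between the times (13.5% of all features), and a median of 0.01. The smallest p among them were those of the protein kinase C gene Prkcd (-0.28 ± 0.11, SE) and the inositol phosphate kinase gene Ip6k1 (0.35 ± 0.14) between the times, and of Prkaca (-0.67 ± 0.28), a catalytic subunit of protein kinase A, at 4 h from the self-self arrays. The difference of Prkaca was -0.16 without the self-self array 1HG, where its ratio was 1.51. Of 11 phosphatases and genes of pyrophosphate and nucleotide handling, Entpd2 was called: this ectoenzyme, which releases phosphate from extracellular nucleotides, was lower at 4 h by -1.15 ± 0.16 against 20 min (adjusted p = 0.0113) and by -1.15 ± 0.17 against the self-self arrays (adjusted p = 0.0408). The median of its list was -0.10 between the times. Entpd2 did not pass between the times without 20 min replicate 2 (adjusted p = 0.0503). Its call there was also lost with array 6 averaged as deposited (0.217) or, sign turned, in place of replicate 2 (0.0587). In the other settings Entpd2 passed between the times. Against the self-self arrays Entpd2 did not pass without 4 h replicate 1, 4 or 5 or without any 1 of the self-self arrays 1HG, 3HG and 3HF, with adjusted p between 0.0596 and 0.328. Scaling (0.0845), quantile normalization (0.135), a fit of only the 2 groups (0.234) and the replicate block (0.183) lost it too. So did each use of array 6 (0.0875 to 0.55). It was kept without centring (0.0458), with each probe on its own (0.043) and with trend and robust eBayes (0.0264).

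For calcium absorption, which shares vitamin D with phosphate absorption, 10 genes were measured and 0 called in any comparison with limma, 0 had an unadjusted p below 0.05 between the times (13.5% of all features), and the median was -0.12. The smallest p belonged to the calcium pump genes Atp2b1, Atp2b2 (0.27 ± 0.18, SE, at 4 h) and Atp2b4 (0.27 ± 0.14 at 20 min), each from the self-self arrays. For Atp2b1 the difference of -5.82 ± 2.90 at 4 h came with a value of 16.68 on the self-self array 1HG, and was -0.26 without that array. The difference of Atp2b4 was 0.15 without it. Sodium pump and sodium exchange genes, which set or use the gradient that drives these cotransporters, had 10 measured members, 0 called in any comparison with limma, 2 with an unadjusted p below 0.05 between the times (13.5% of all features), and a median of -0.02. Scnn1a, a subunit of the epithelial sodium channel, differed by 0.38 ± 0.10 between the times (adjusted p = 0.13), the sodium pump subunit gene Atp1b3 by 0.32 ± 0.11 (adjusted p = 0.221), and Fxyd2, a regulator of the pump, by -0.80 ± 0.36 at 4 h from the self-self arrays (adjusted p = 0.492). The difference of Fxyd2 was -0.20 without the self-self array 3HG, where its ratio was 1.96. The 15 measured genes listed as other coupled and anion transporters of the brush border included Slc2a5, a fructose transporter that is neither. Slc2a5 was the 1 called gene of that list, with a difference of 1.97 ± 0.14 between the times (adjusted p = 2.89e-05), opposite in sign to Slc34a2. The list's median was 0.06. The lists were chosen with earlier results of these data known.

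**Figure D4:**
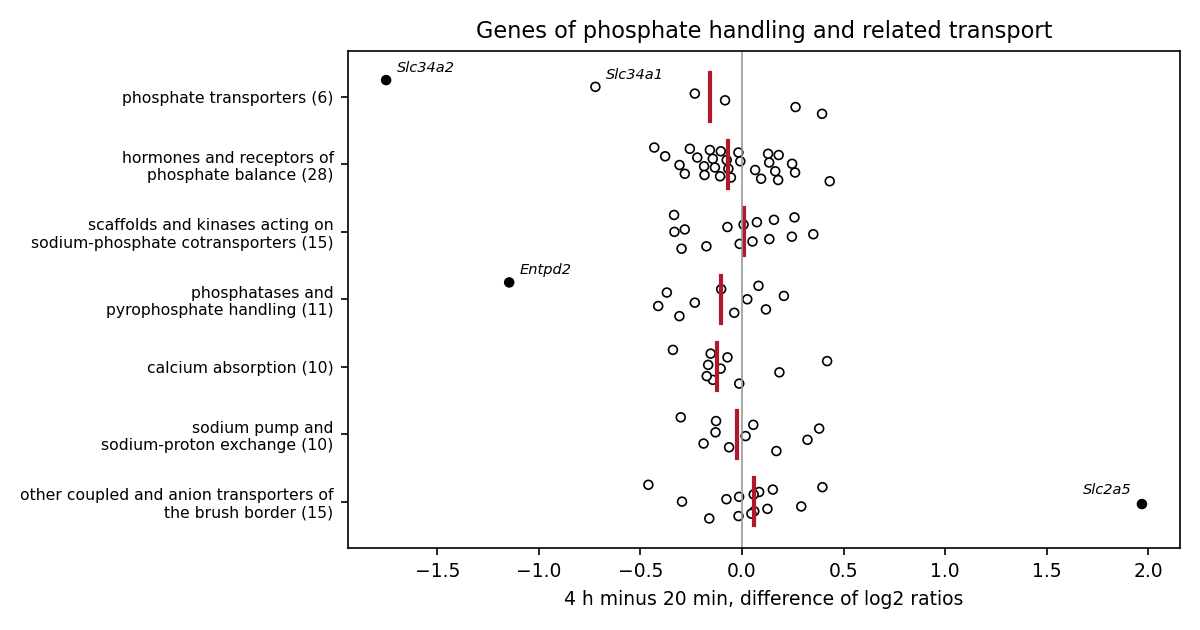
Differences of log2 ratios between 4 h and 20 min (horizontal axis) of the measured genes of 7 lists, with the number measured in brackets; each point is a gene, filled where the limma adjusted p is below 0.05, and the red bar is the list's median (vertical placement within a list has no meaning). Slc34a2 at -1.75, Entpd2 at -1.15 and Slc2a5 at 1.97 are the filled points, and the medians lie between -0.16 and 0.06.

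Slc34a2 is a gene of enterocytes, and markers of these cells were examined beside it. Of 18 enterocyte markers 16 were measured and 0 were called in any comparison with limma. Between 4 h and 20 min 11 of the 16 lay below 0, where 52% of all features did. Their median was -0.21, with a range from -0.50 (Fabp2) to 0.39 (Treh). Of the 16, 4 had an unadjusted p below 0.05, all with a lower ratio at 4 h, where 7.22% of all features did. At 4 h against the self-self arrays their median was -0.07, with 8 markers below 0 and 8 above. In that comparison 3 had an unadjusted p below 0.05, all with a lower ratio. The share of all features was not counted there, so these 3 are no test of the list. Fxyd2, with an unadjusted limma p of 0.0445 there, ranked 418 of 4682 features by p. At least 418 features thus had an unadjusted p below 0.05. Slc34a2 lay beyond the whole range of the enterocyte markers between the times. The other 9 marker lists, of crypt, goblet and Paneth, enteroendocrine, smooth muscle, neuron and glia, immune, endothelial, red blood and exocrine pancreas cells, had 0 called genes and medians from -0.11 to 0.32 between the times. The part of these cells in the Slc34a2 result was not tested.

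The genes whose ratios most resembled those of Slc34a2 were sought over the 9 arrays at 4 h and 20 min, among 603 genes with a range of at least 1. The highest Pearson r were those of Ccl2 (0.97), a monocyte chemokine gene, Ntn3 (0.91), which encodes a netrin, Fabp2 (0.88), the intestinal fatty acid binding protein, Barhl1 (0.88), a homeobox gene, and the death receptor gene Fas (0.86). The lowest were those of Herpud1 (-0.93), which acts in the removal of misfolded proteins from the endoplasmic reticulum, Slc2a5 (-0.89), Atf4 (-0.89), a transcription factor of the amino acid and endoplasmic reticulum stress responses, Prpsap1 (-0.87), which binds phosphoribosyl pyrophosphate synthetase, and Trib3 (-0.86), known as an ATF4 target. Slc34a1 had r = 0.30. These values describe the 9 arrays only. The step between the times enters every one of them, and the points share arrays and time groups. Over all 12 arrays r was 0.94 for Ccl2, -0.92 for Herpud1 and -0.46 for Atf4, which had a ratio of 1.77 on the self-self array 1HG.

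Herpud1 and the others were selected on these same arrays, so their values are given as a description only. At 4 h Herpud1 had ratios of 0.73, 0.49, 1.17, 1.02 and 1.08 in pairs 1 to 5, lowest in pair 2, where Slc34a2 was nearest to 0, and highest in pair 3, where Slc34a2 was lowest. After 20 min Herpud1 had ratios of -0.33, -0.49, -0.66 and 0.47, and pair 4, the only one above 0, was the only one in which Slc34a2 lay below 0. Ccl2 at 4 h had ratios of -0.25, 0.06, -0.76, -0.54 and -0.23, lowest in pair 3 and highest in pair 2. Pairs 4 and 5 were not in matching order in Herpud1 and Slc34a2. Within the 5 arrays at 4 h the r of all 10 genes with Slc34a2 kept its sign, but within the 4 arrays at 20 min it had the opposite sign for 5 of the 10, Ntn3, Fas, Slc2a5, Atf4 and Trib3. Between the times Herpud1 (1.15 ± 0.21, SE; limma adjusted p = 0.0392) and Prpsap1 (1.04 ± 0.16; adjusted p = 0.0154) were higher at 4 h and Barhl1 (-1.83 ± 0.17; adjusted p = 0.00022) was lower, through its mean of 1.81 at 20 min. Trib3 (0.65 ± 0.13), Atf4 (0.77 ± 0.31), Ccl2 (-0.55 ± 0.15), Ntn3 (-0.58 ± 0.18), Fas (-0.62 ± 0.17) and Fabp2 (-0.50 ± 0.18) did not pass, with adjusted p between 0.0542 and 0.29. The call of Herpud1 was lost without any 1 of 4 h replicates 1, 3, 4 and 5, 20 min replicates 1, 2 and 3, or the self-self arrays 3HG and 3HF (adjusted p from 0.0566 to 0.143), and that of Prpsap1 without 20 min replicate 2, 3 or 4 (0.053 to 0.0648). Without the self-self array 1HG, Atf4 (adjusted p = 0.0117) and Trib3 (0.0352) passed, and Trib3 also passed without 4 h replicate 5 (0.0322).

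**Figure D5:**
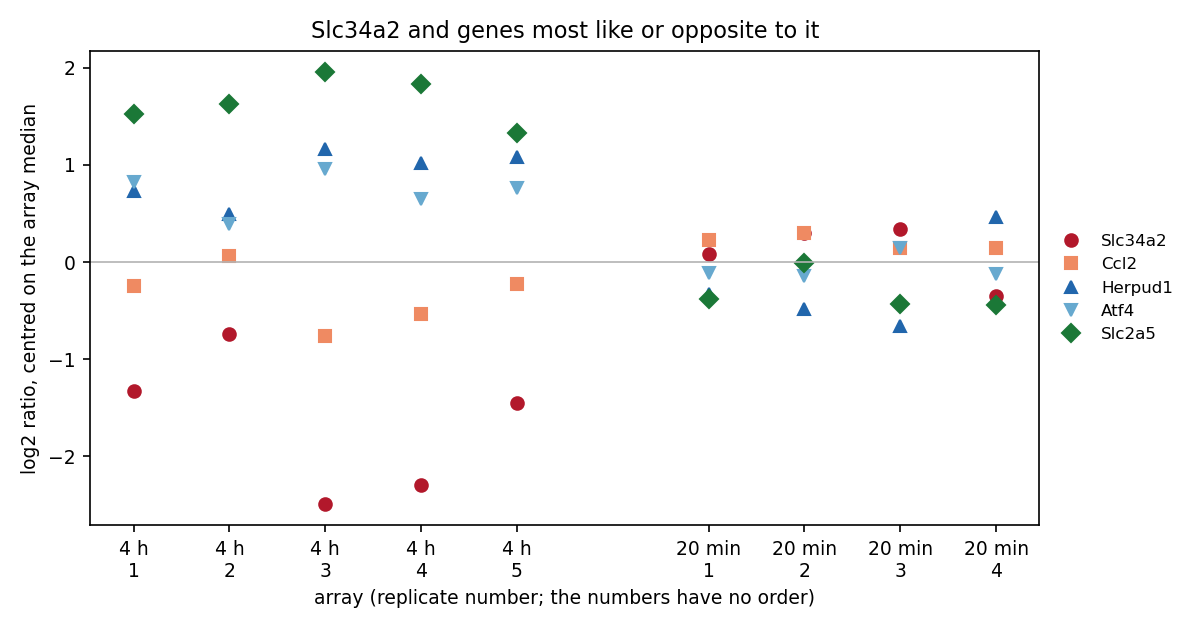
Log2 ratios (vertical axis, centred on the array median) of Slc34a2 and of 4 of the genes most like or opposite to it on the 5 arrays at 4 h and the 4 at 20 min; replicate numbers have no order. At 4 h Slc34a2 lies between -2.49 and -0.74 while Slc2a5 lies between 1.33 and 1.95, and at 20 min pair 4 has both the lowest Slc34a2 (-0.35) and the highest Herpud1 (0.47).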

How the data were processed

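The table as deposited by the authors holds log ratios, assumed to be log2, of 4952 probes on 14 arrays, with 0 missing. The column medians ran from -0.07 to 0.02. How they were scanned and normalized, the log base and which channel is the numerator are not stated in the sources used, so scale, centring and direction are unknown. The platform annotation gives 1 symbol for 4426 probes, several for 2 and none for 524. Matched by Entrez gene to RefSeq (GRCr8), 4371 were found, with 0 symbols changed.

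Arrays were centred on their medians, and averaging probes of 1 symbol gave 4682 features. A single limma 3.58.1 fit (lmFit and eBayes, R 4.3.3) of 12 arrays had 3 groups, with 9 residual and 2.84 prior degrees of freedom, and p-values were adjusted by Benjamini-Hochberg over all features, with calls below 0.05. Exact permutation tests used scipy 1.17.1. Steps were tested on simulated data.

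The rule named all genes whose symbol begins with Slc34a or Slc20a, from each list the called genes or otherwise up to 3 with the smallest p, and the 5 most like and 5 most opposite to Slc34a2. Members and lists were chosen with earlier results of these data known. Alternatives covered centring, scaling, probe averaging, array 6, the control, the replicate block and each array left out. Dim probes could not be set apart.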

Additional observations from a re-analysis of the deposited data

Results flagged for a closer look

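Some results stood out by fixed rules. The ratio of Slc34a2 differed between the times in limma's test by -1.75 (adjusted p = 0.0312). The other named genes that differed between the times in that test were Slc2a5 (1.97), Entpd2 (-1.15), Barhl1 (-1.83), Herpud1 (1.15) and Prpsap1 (1.04). On array 6, which entered no test, Slc34a2 (0.68) and Slc20a1 (0.98) lay further from 0 than on any self-self array.

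A single array stood far from the others of its group in 2 of 58 groups examined, over 29 named genes, where chance gives about 1 in 20. At 20 min Slc2a5 was -0.0146 in replicate 2 and between -0.44 and -0.38 in the others, and Atf4 was 0.14 in replicate 3 and between -0.14 and -0.11 in the others. None of these concerned the 4 phosphate cotransporter genes.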

How the results depend on the processing

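For Slc34a2 between 4 h and 20 min, the limma call was lost when array 6 was averaged with array 2 as deposited (-1.61; adjusted p = 0.236) and when it replaced array 2 with its sign turned about the self-self median (-1.73; adjusted p = 0.0587). With the replicate number as a block the difference was -1.80 (adjusted p = 0.0575), and the features called fell from 28 to 12. Whether the numbers pair the samples across the times could not be decided. The correlations of same-numbered deviations were -0.07, 0.16, -0.03 and -0.02, and 1 of 4 pairs correlated best with its own number. For 4 h and self-self arrays of the same number, which may share RNA, they were 0.01, -0.02 and 0.01. A low correlation here therefore cannot exclude a pairing. With 1 array left out the difference ranged from -1.98 to -1.54, and for Slc34a2 less its relatives from -1.80 to -1.30. Over all alternatives of the shared fit the features called between the times ranged from 0 to 43, with 0 when array 6 was averaged as deposited.

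At 4 h from the self-self arrays, Slc34a2 passed against 0 with no control subtracted (-1.66, limma adjusted p = 0.000232). In that setting Slc34a1, whose self-self ratios were below 0, passed too (adjusted p = 0.00197). In the exact permutation test Slc34a2 had an unadjusted p of 0.0357 (-1.71). That is the smallest p that 5 against 3 arrays can give, and these groups did not overlap in 6.71% of all features. With 1 array left out the difference of Slc34a2 ranged from -1.94 to -1.50. At 20 min its difference changed sign with the replicate block (-0.0374) and ranged from -0.0381 to 0.19 with 1 array left out. Tested against 0, 3 differences that had not passed changed sign: Slc20a1 (0.0143) and Slc34a1 (-0.24) at 20 min and Slc20a2 (0.0603) at 4 h, which also did so with array 6 in place of array 2 (0.0111). For 26 results of other named genes, 0 of 569 values changed sign, 37 lost and 9 gained the call. The causes were not tested, and signal over background was not analysed here.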
